A study of Mus musculus with 2 samples.

Results

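Where the transcripts of 9 genes for neurotrophic and itch factors lay in psoriasis-like mouse skin was examined in single cells. The genes were *Bdnf*, *Ntf3*, *Gdnf*, *Artn*, *Sema3a*, *Tslp*, *Il31ra*, *Penk* and *Edn1*, taken by symbol from the 31053 genes of the count matrices, where each symbol stood on 1 row.

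These genes code for secreted signals, and 1 receptor subunit, through which skin cells act on sensory nerve fibres. *Bdnf* and *Ntf3* are neurotrophins that signal through Trk receptors, and *Gdnf* and *Artn* are ligands that bind GFRα co-receptors and signal through Ret. *Sema3a* codes for a semaphorin that repels growing axons through neuropilin and plexin receptors. *Tslp* is an epithelial cytokine that acts on immune cells and on itch-sensing neurons, and *Il31ra* codes for the receptor subunit of the itch cytokine IL-31. *Penk* codes for the precursor of the opioid enkephalins, and *Edn1* codes for endothelin-1, a peptide that constricts vessels and evokes itch.

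Both samples came from wild type C57BL/6 mice whose ears had received imiquimod, a TLR7 agonist, daily for 5 days. The labels give an age of 10 weeks, which differs from the age in the methods of the study. There was 1 dermal and 1 epidermal library, the number of animals behind each is not given in the sources used here, and no untreated library was used here. The labels describe live cells of both layers, while the methods of the study describe CD45+ live cells for the dermis, so no share of non-immune cells in the dermis is read here.

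After cells with fewer than 200 genes or over 10% mitochondrial UMIs were left out, 4747 dermal and 4173 epidermal cells remained, with medians of 7010 and 25918 UMIs (unique molecular identifiers, each counting 1 captured transcript). The libraries shared 45 cell barcodes before and 30 after this filter. Kept cells whose barcode occurred in the other library before the filter held 29 of the 3958 epidermal *Tslp* UMIs. In every other case they held at most 2 UMIs. Cells were assigned to classes by marker genes and each class is called "-like" for that reason. A class was gated for 78.7% of dermal and 95.2% of epidermal cells. The dermal library held 311 fibroblast-like cells, with *Col1a1* and *Pdgfra* among their markers, and 1 keratinocyte-like cell, and the epidermal library held 3 fibroblast-like beside 2691 basal, 407 differentiated and 51 upper follicle keratinocyte-like cells. Levels are given as CPM, the UMIs of a gene per 1000000 UMIs summed over the cells of a class, and the brackets hold exact 95% intervals, Poisson for UMIs and CPM and Clopper-Pearson for shares, which cover counting error only. With 1 library per tissue there was no replicate of a class and no test between classes was made. The highest and the second class of a gene always refer to classes of at least 50 cells.

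Of the 9 genes, *Tslp* was by far the most abundant in the epidermis, with 3958 UMIs in 1175 cells, and it lay in keratinocyte-like cells. *Penk* with 636 UMIs and *Sema3a* with 247 led in the dermis, where fibroblast-like cells held 55.8% and 52.6% of them. The other 6 genes ranged from 5 to 118 UMIs in the dermis and from 9 to 130 in the epidermis, so that *Bdnf* and *Il31ra*, with at most 18 UMIs in either library, can only be listed.

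**Figure D1:**
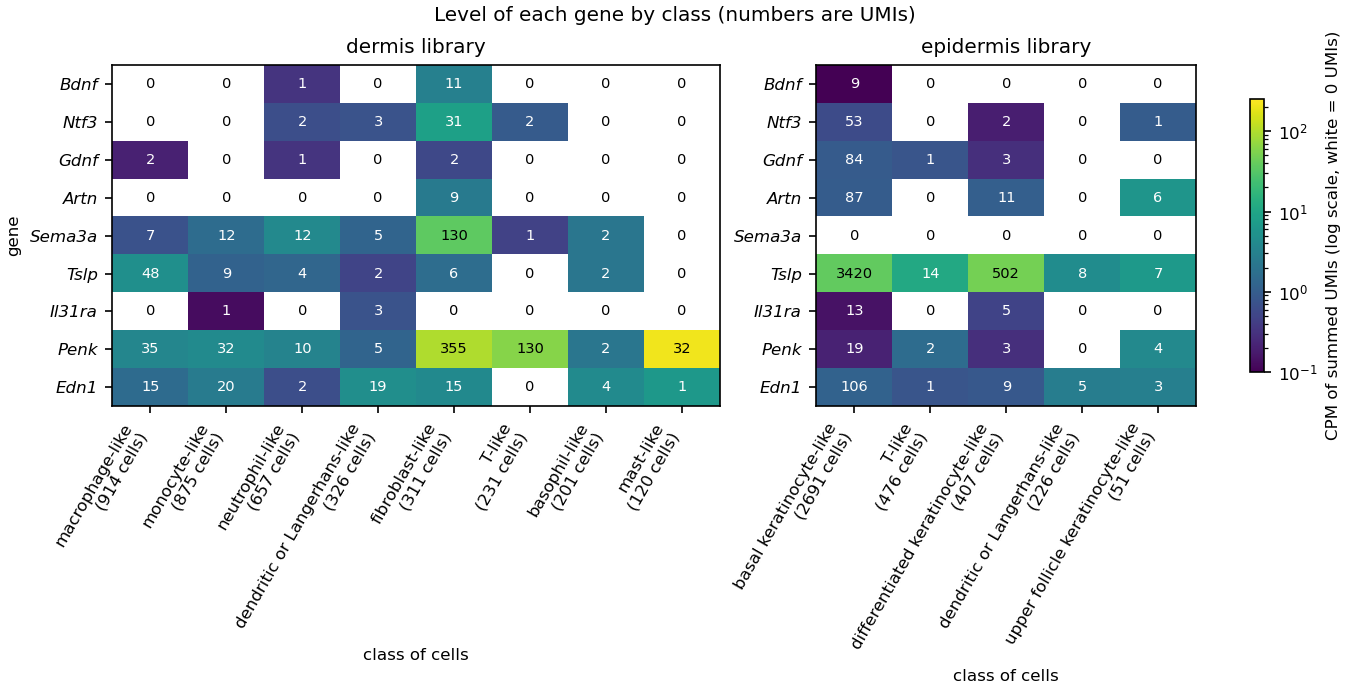
Level of the 9 genes (rows) in the classes of at least 50 cells (columns) of the dermal and the epidermal library, as CPM of summed UMIs on a logarithmic colour scale, with the number of UMIs written in each field and white for 0 UMIs. *Tslp* reached 3420 UMIs in basal keratinocyte-like cells and 502 in differentiated ones, and *Penk* 355 in fibroblast-like, 130 in T-like and 32 in mast-like cells.

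Concentration in 1 class was read as a CPM at least 4-fold over that of the second class, among genes with at least 20 UMIs in the library and classes of at least 50 cells. In the dermis 2 of the 5 listed genes that reached 20 UMIs met this, *Sema3a* and *Ntf3*, against 13.0% of all 13295 genes with as many UMIs. In the epidermis 1 of 6, *Artn*, met it, against 12.7% of 13467 genes. Nothing about the list is read from counts this small. With a pseudocount of 0.5 UMIs per class, an alternative chosen after the data were seen, *Sema3a* stayed concentrated in the dermis and *Ntf3* did not.

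*Tslp*, on chromosome 18, was the keratinocyte signal of the list. Basal keratinocyte-like cells held 86.4% of its epidermal UMIs at 38.2 CPM (37.0 to 39.5), and differentiated ones stood at 48.7 CPM (44.5 to 53.1). Basal cells held 89447281 of the 105033363 epidermal UMIs of all genes. A large share in that class, here and for the other genes, is therefore no sign of a higher level there. Without the richest cell of each class these levels were 36.4 and 37.2 CPM, both below their intervals, so the order of the 2 classes rests on single cells. The upper follicle class was lower, at 6.90 CPM (2.77 to 14.2) from 7 UMIs in 51 cells, and its interval did not overlap that of either other keratinocyte class. A *Tslp* UMI was seen in 37.6% of basal (35.8 to 39.5), 31.4% of differentiated (27.0 to 36.2) and 11.8% of upper follicle cells (4.44 to 23.9).

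The background was read from epidermal T-like cells, a class not known as a source of this cytokine, where 14 of 476 cells (2.94%) had a *Tslp* UMI and none had more than 1. Their median depth was 2348.5 UMIs, against 32820 in basal cells. When every cell was thinned to 1000 UMIs, the expected share was 3.31% in basal, 3.23% in differentiated and 0.594% in upper follicle cells, against 1.17% in T-like cells. At 2000 UMIs it was 5.87% in basal and 1.05% in T-like cells. Per 10000 UMIs of the keratins *Krt14* and *Krt5*, *Tslp* stood at 20.1 UMIs in T-like and 10.9 in dendritic or Langerhans-like cells, beside 15.5 in basal and 26.1 in differentiated cells. The upper follicle class stood at 5.26, below all of these.

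*Tslp* was unevenly spread between cells of the same class. Of the 1175 epidermal cells with a UMI, 694 had 1, whereas the richest cells held 167 and 121. The 75 richest cells held 50% of the UMIs, and the 5 richest held 13.1%.

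**Figure D2:**
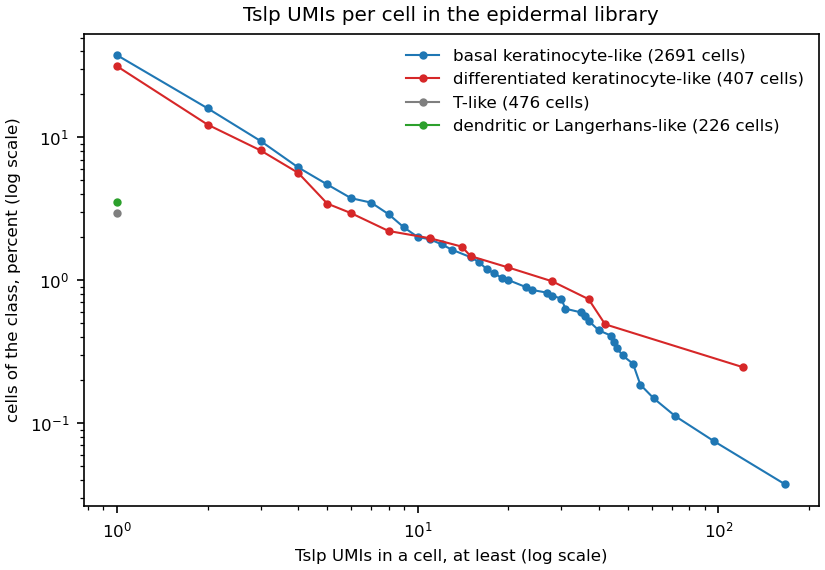
Percent of the cells of a class (vertical, logarithmic) with at least a given number of *Tslp* UMIs (horizontal, logarithmic) in the epidermal library, for basal and differentiated keratinocyte-like, T-like and dendritic or Langerhans-like cells. Basal and differentiated cells run to 167 and 121 UMIs, while the T-like and dendritic or Langerhans-like cells with *Tslp* all held 1.

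Within keratinocytes, *Tslp* varied with the share of cell-cycle UMIs. Basal keratinocyte-like cells were ordered by the share of their UMIs from 8 cell-cycle genes, among them *Mki67* and *Top2a*, and cut into 4 bins of 672 or 673 cells, a division made after values were seen. From the lowest to the highest bin the *Tslp* level was 84.4, 37.3, 19.0 and 26.8 CPM. The interval of the lowest bin (80.1 to 88.9) lay above those of the other 3, and without its richest cell that bin was at 74.8 CPM. Median depth differed as well, 25420 UMIs in the lowest bin and 35801 in the highest, and its part in this difference was not tested. Thinned to 2000 UMIs, the expected share of cells with *Tslp* was 9.05%, 6.20%, 3.71% and 4.57%, the same order as the CPM. In differentiated cells the lower bins had 67.8 and 80.4 CPM and the upper ones 29.7 and 25.9 CPM, but single cells carried much of these levels. In the second bin 1 cell held 121 UMIs. Without the richest cell of each bin the levels were 46.7, 35.5, 16.1 and 21.2 CPM, the first 3 below their intervals.

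**Figure D3:**
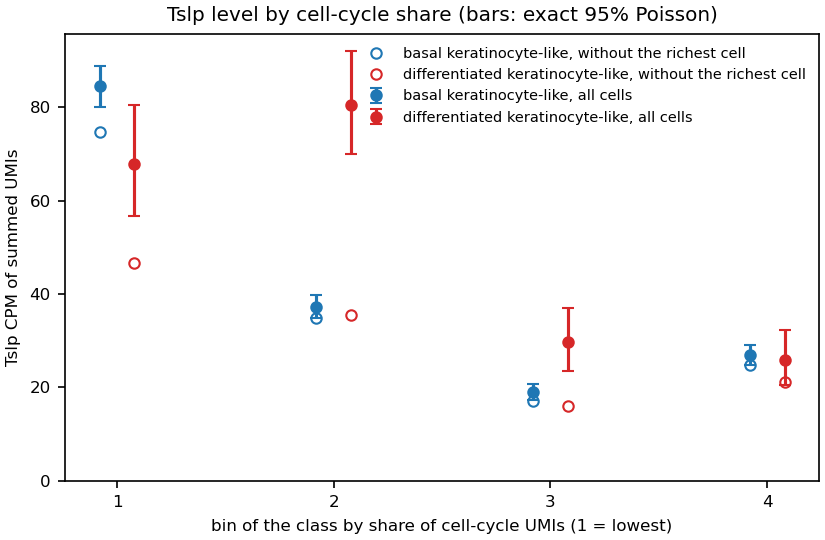
*Tslp* level (CPM of summed UMIs) in 4 bins of basal and of differentiated keratinocyte-like cells ordered by the share of cell-cycle UMIs, filled points with exact 95% Poisson intervals for all cells and open points without the richest cell of the bin. Basal cells with the fewest cell-cycle UMIs stood at 84.4 CPM and those in the next 3 bins between 19.0 and 37.3 CPM.

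In the dermis, *Tslp* had 89 UMIs, and 48 of them lay in 36 of the 914 macrophage-like cells, at 4.96 CPM (3.66 to 6.58). The richest of these cells held 6 UMIs. Basophil-like cells stood at 2.13 CPM, from 2 UMIs in 1 cell, fibroblast-like cells at 1.66 CPM and neutrophil-like cells at 1.31 CPM. Monocyte-like cells stood at 1.18 CPM (0.540 to 2.24), dendritic or Langerhans-like cells at 0.496 CPM (0.0601 to 1.79) and T-like cells at 0 in 231 cells, which allows a share of cells with a UMI of up to 1.30%. Limits of this kind, here and for other genes, bound cells with a captured UMI and not cells that express the gene. The same macrophage-like cells held 25 *Krt14* and *Krt5* UMIs beside 48 of *Tslp*, and fibroblast-like cells held 3 beside 6. Monocyte-like cells held 14 beside 9 and neutrophil-like cells 14 beside 4. In the epidermis *Tslp* was far below these keratins. The part of RNA from other cells in these *Tslp* counts was not tested. The lymphatic endothelial-like cells, a class under 50 cells, had 4 *Tslp* UMIs, in 4 of 12 cells, or 35.0 CPM (9.54 to 89.6). The vascular ones had 6, in 5 of 30 cells, or 11.99 CPM (4.40 to 26.1). Both levels were above that of macrophage-like cells. The lymphatic interval did not overlap the macrophage one and the vascular interval did, and both levels rest on few UMIs.

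The receptor for TSLP is a pair of *Crlf2* and *Il7r*. *Crlf2* was abundant in both libraries, with 4826 dermal and 2160 epidermal UMIs, and was highest in basophil-like cells of the dermis at 312 CPM, followed by neutrophil-like cells at 165 CPM. *Il7r* was highest in dermal T-like cells at 142 CPM and in epidermal dendritic or Langerhans-like cells at 96.7 CPM.

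*Il31ra* (chr13:112519898-112594360) was near the floor of detection. The predicted gene *Gm3226* overlaps it on the same strand in GENCODE M21. If that gene is also among the counted genes, reads in shared sequence could not be assigned to either. *Il31ra* had 5 UMIs in the dermis, 3 of them in dendritic or Langerhans-like cells, and 18 in the epidermis, 13 in basal and 5 in differentiated keratinocyte-like cells. Its ligand *Il31* had 0 UMIs in 4747 dermal and 4173 epidermal cells, which allows shares of cells with a UMI of up to 0.0632% and 0.0719%. The partner subunit *Osmr* was by contrast well covered. It was highest in dermal fibroblast-like cells at 58.8 CPM against 2.62 CPM in the second class, and in the epidermis in upper follicle cells at 28.6 CPM. This subunit was also at 52.0 CPM in the 30 vascular endothelial-like cells, with 26 UMIs in 12 of them. *Osm*, the other ligand of that subunit, led in dermal basophil-like cells at 1151 CPM, 11.5-fold over neutrophil-like cells. Of the 10 genes of this axis, 8 passed 20 UMIs in each library. Concentrated in 1 class were 3 in the dermis (*Osmr*, *Osm* and *Il6st*) and 0 in the epidermis, beside 13.0% and 12.7% of all genes. *Il6st* was also at 297 CPM in Schwann or glial-like cells (36 UMIs in 15 of 26), above the 111 CPM of fibroblast-like cells.

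*Penk* lies on the minus strand at chr4:4133531-4138819 (GRCm38). Its coding sequence of 804 bases repeats the enkephalin pentapeptide 7 times, 6 times ending in the codon for methionine (Met-enkephalin) and once in that for leucine (Leu-enkephalin). The 7 copies are shown because they are what a *Penk* UMI stands for; they come from the GENCODE M21 transcript and run 5′ to 3′ on the coding strand, the 15 bases of the pentapeptide are in capitals, and the 6 bases on either side, which mostly code for the basic residues at which the precursor is cut, are in lower case.
Copy 1, chr4:4134328-4134354: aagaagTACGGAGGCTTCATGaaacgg
Copy 2, chr4:4134307-4134333: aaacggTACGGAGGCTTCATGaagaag
Copy 3, chr4:4134220-4134246: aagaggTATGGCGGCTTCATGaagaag
Copy 4, chr4:4134067-4134093: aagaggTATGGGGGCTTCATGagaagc
Copy 5, chr4:4133995-4134021: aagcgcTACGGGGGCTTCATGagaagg
Copy 6, chr4:4133935-4133961: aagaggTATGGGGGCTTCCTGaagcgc
Copy 7, chr4:4133842-4133868: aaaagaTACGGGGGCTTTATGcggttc
All 7 are in exon 2 of 2. The last copy ends 317 bases before the 3′ end of the transcript, the end from which the libraries were read. Positions of reads were not examined, so whether any read covers a copy is not known here.

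*Penk* was found in fibroblast-like, T-like and mast-like cells of the dermis. Fibroblast-like cells held 355 of the 636 UMIs, in 49 of 311 cells, at 97.9 CPM (88.0 to 109). T-like cells held 130, in 11 of 231 cells, at 60.6 CPM (50.6 to 72.0). Mast-like cells held 32, in 12 of 120 cells, which at their low depth (median 834 UMIs) is 210 CPM (144 to 297), the highest level of the classes. Without the richest cell of each class, the levels were 65.0 CPM in fibroblast-like, 35.3 CPM in T-like and 127 CPM in mast-like cells, each below its interval, in the same order. The other classes of at least 50 cells ranged from 1.24 CPM in dendritic or Langerhans-like to 4.20 CPM in monocyte-like cells. Neutrophil-like cells, with 1.37% of cells at a median of 3574 UMIs, were taken as background. Thinned to 1000 UMIs, the expected share of cells with *Penk* was 4.61% in fibroblast-like, 2.10% in T-like and 12.2% in mast-like cells, against 0.235% in neutrophil-like cells. The mast-like share rests on the 41 of 120 cells that reached that depth.

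A few cells carried most of these UMIs. The richest fibroblast-like cell held 120 UMIs and the next held 25, 23, 22 and 19, so that 5 of 311 cells had 58.9% of the class total. In the mast-like class the richest cell held 13 of the 32 UMIs, 2 held 4, 1 held 3 and the other 8 held 1 each. As a measure of collagen RNA beside *Penk*, there were 54 UMIs of *Col1a1* and *Col1a2* beside 130 of *Penk* in T-like cells and 10 beside 32 in mast-like cells, against 11684 beside 355 in fibroblast-like cells. Per 10000 collagen UMIs, *Penk* stood at 304 in fibroblast-like cells, 392 in neutrophil-like, 490 in dendritic or Langerhans-like, 690 in basophil-like, 989 in macrophage-like and 1111 in monocyte-like cells, and at 24074 and 32000 in T-like and mast-like cells. The part of RNA from other cells in these counts was not tested.

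Among the T-like cells, *Penk* lay mainly in those with *Foxp3*, the transcription factor of regulatory T cells. The 44 cells with a *Foxp3* UMI held 108 *Penk* UMIs in 6 cells, with 55, 44, 5, 2, 1 and 1 UMIs, or 354 CPM (290 to 427). The 187 cells without one held 22 in 5 cells, with 15, 3, 2, 1 and 1, or 11.96 CPM (7.50 to 18.1). Without the richest cell of each side the levels were 186 and 3.85 CPM. Depth ran the other way, with medians of 5518.5 and 7936 UMIs. The split was made after values were seen, it was 1 of 5 tried in T-like cells, and the difference rests on 2 cells of 55 and 44 UMIs.

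**Figure D4:**
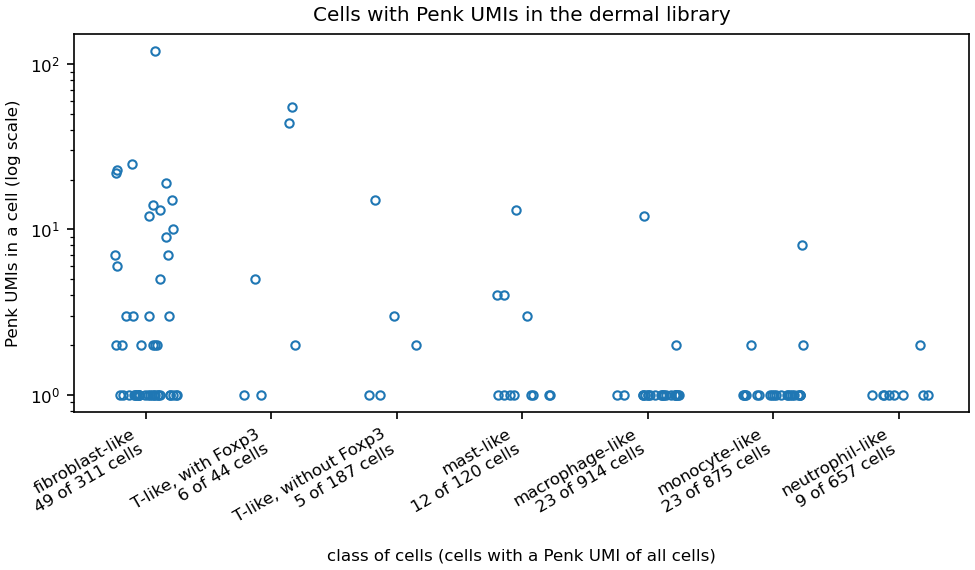
*Penk* UMIs of each dermal cell with at least 1 (vertical, logarithmic) by class, with T-like cells divided by a *Foxp3* UMI and the number of cells with *Penk* of all cells under each name. Cells over 10 UMIs were found in fibroblast-like (to 120), T-like (to 55), mast-like (13) and macrophage-like cells (12), and neutrophil-like cells did not exceed 2.

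In the epidermis *Penk* had 53 UMIs. A single ungated cell held 18 and the 3 fibroblast-like cells held 7, whereas 2691 basal keratinocyte-like cells held 19, never more than 1 in a cell. The opioid receptors were at or near 0: *Oprm1* had 1 dermal UMI, *Oprd1* had 2 epidermal UMIs, and *Oprk1* had 0 UMIs in either library. Of the 12 genes of the enkephalin and opioid axis, 5 passed 20 UMIs in the dermis and 3 of these were concentrated in 1 class, beside 13.0% of all genes. *Cpe*, an enzyme that trims the peptides, was at 112 CPM in dermal fibroblast-like cells, the highest of the dermal classes of at least 50 cells. The smaller Schwann or glial-like class stood above that, at 619 CPM from 75 UMIs in 20 of 26 cells. Epidermal *Cpe* had 4296 UMIs and was highest in upper follicle cells, at 129 CPM from 131 UMIs, with basal cells at 41.8 CPM. *Mme*, the neprilysin that degrades enkephalins, was highest in fibroblast-like cells at 25.9 CPM. *Pcsk1*, a convertase of the precursor, had 19 of its 26 UMIs in T-like cells, at 8.86 CPM. In the epidermis 3 passed and 0 were concentrated, beside 12.7% of all genes.

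*Sema3a* (chr5:13125414-13602565) was a stromal gene with a second site in lymphatic endothelium. Predicted genes (*Gm42675*, *Gm42676* and *Gm43130*) overlap it on the same strand in GENCODE M21. Where such a gene is also among the counted genes, reads in shared sequence could not be assigned to either. Fibroblast-like cells held 130 of 247 dermal UMIs, in 69 of 311 cells, at 35.9 CPM (29.96 to 42.6), and the next class, neutrophil-like, stood at 3.93 CPM (2.03 to 6.86), 9.13-fold lower. The 12 lymphatic endothelial-like cells, with *Lyve1* and *Prox1* among their markers, held 27 UMIs in 8 cells, with 6, 6, 4, 4, 3, 2, 1 and 1 UMIs, or 236 CPM (156 to 344). In the 30 vascular endothelial-like cells there were 7 UMIs in 4 cells, or 14.0 CPM (5.63 to 28.8). The intervals of the lymphatic and the vascular class did not overlap, and the lymphatic value rests on 12 cells.

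Thinned to 1000 UMIs, *Sema3a* was expected in 25.7% of lymphatic endothelial-like and 3.30% of fibroblast-like cells, against 0.246% of neutrophil-like cells. Of the dermal *Sema3a* UMIs, 44 (17.8%) were in ungated cells. The epidermal library had 1 UMI, in a fibroblast-like cell, and 0 in 2691 basal keratinocyte-like cells allows a share of cells with a UMI of up to 0.111%.

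Of the receptors for *Sema3a*, *Nrp1* was highest in dermal mast-like cells (65.8 CPM, 10 UMIs) and macrophage-like cells (37.7 CPM, 365 UMIs) among classes of at least 50 cells. The 30 vascular endothelial-like cells stood above both, at 90.0 CPM from 45 UMIs in 15 cells. In the dermis *Plxna1* was highest in fibroblast-like (9.38 CPM) and macrophage-like cells (7.96 CPM), and in the epidermis in dendritic or Langerhans-like cells (16.8 CPM, 30 UMIs). *Plxna4* had 31 dermal UMIs, 13 of them in fibroblast-like cells. Of the 14 semaphorin and receptor genes, 12 passed 20 UMIs in the dermis. Among classes of at least 50 cells 4 were concentrated, all in fibroblast-like cells: *Sema3a*, *Sema3c*, *Plxna2* and *Plxna4*. Smaller classes stood higher for each. *Plxna2* was at 32.0 CPM in vascular and 43.8 CPM in lymphatic endothelial-like cells, against 4.14 CPM in fibroblast-like cells. *Sema3c* was at 49.6 CPM in Schwann or glial-like cells against 13.0 CPM, and *Plxna4* at 6.00 CPM (3 UMIs) in vascular endothelial-like cells against 3.59 CPM. Of all genes, 13.0% were concentrated in the dermis and 12.7% in the epidermis. In the epidermis 11 passed and 2 were concentrated, *Sema3e* in upper follicle cells with 5 UMIs and *Nrp1* in T-like cells with 3. Of the other class 3 semaphorins in the epidermis, *Sema3c* had 2542 UMIs and 27.0 CPM in basal keratinocyte-like cells, and *Sema3f* had 1261 UMIs, with 12.3 CPM in basal and 13.6 CPM in differentiated cells.

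*Penk* and *Sema3a* lay on opposite sides of a split of the fibroblast-like cells by *Crabp1*. In the 191 cells with a UMI of *Crabp1*, a retinoic acid-binding protein of dermal fibroblasts, *Sema3a* was at 50.9 CPM (42.1 to 61.0) and *Penk* at 12.9 CPM (8.73 to 18.5). In the 120 cells without one the order was turned, with *Sema3a* at 9.18 CPM (4.74 to 16.03) and *Penk* at 248 CPM (222 to 277), or 158 CPM without the richest cell. Median depths were close, 10102 and 9454 UMIs. The share of cells followed: 31.9% against 6.67% for *Sema3a* and 9.42% against 25.8% for *Penk*. *Ntf3* took the side of *Penk*, with 3.45 CPM (1.49 to 6.80) in cells with and 17.6 CPM (11.2 to 26.4) in cells without *Crabp1*.

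*Tnc*, which codes for tenascin-C, and *Coch* gave the same side for *Penk*: 33.9 CPM with and 337 CPM without *Tnc*, and 34.3 CPM with and 183 CPM without *Coch*. Without the richest cell, of 120 UMIs, the cells lacking *Tnc* stood at 182 CPM and those lacking *Coch* at 106 CPM. Cells with *Tnc* were deeper, with medians of 11702 and 6877 UMIs, and the part of depth was not tested. *Sema3a* did not separate by *Tnc*, at 36.0 (29.4 to 43.7) and 35.3 CPM (23.3 to 51.4). By *Coch* it went the same way as *Penk*, with 28.0 CPM (21.3 to 36.2) in cells with and 46.3 CPM (36.2 to 58.3) in cells without a UMI. Cells with both *Penk* and *Ntf3* numbered 11 of 311, where 3.78 would come from independent detection, and cells with both *Penk* and *Sema3a* numbered 12, where 10.9 would. Detection of any pair rises with the depth of a cell, and that part was not tested. These splits were made after values were seen, and 7 genes were tried in fibroblast-like cells; *Dpp4* and *Tnn* left 6 cells on 1 side. With *Mki67* the order was set by the richest cell: the 16 cells with a UMI stood at 391 CPM of *Penk*, but at 59.6 CPM without it, beside 65.6 CPM in the other 295.

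**Figure D5:**
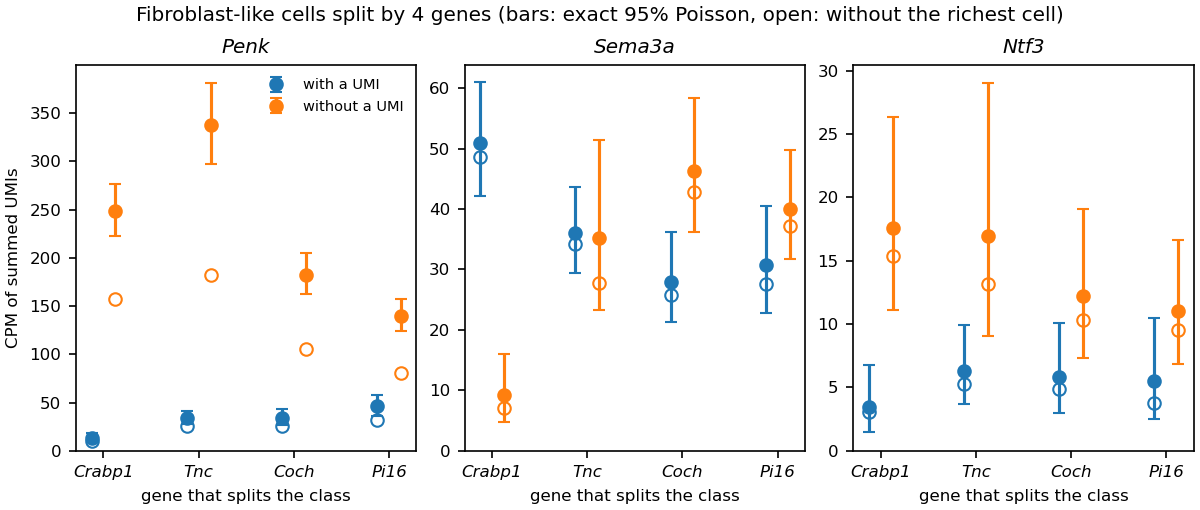
Levels of *Penk*, *Sema3a* and *Ntf3* (CPM of summed UMIs) in the 311 fibroblast-like cells of the dermis, divided by the presence of a UMI of *Crabp1*, *Tnc*, *Coch* or *Pi16*, with exact 95% Poisson intervals and open points without the richest cell of each side. *Sema3a* stood at 50.9 CPM with and 9.18 CPM without *Crabp1*, while *Penk* stood at 12.9 and 248 CPM.

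Of the neurotrophins *Ntf3* and *Bdnf*, *Ntf3* (chr6:126101412-126166910) had more UMIs in both libraries. It had 45 dermal UMIs, of which 31 lay in 24 of 311 fibroblast-like cells at 8.55 CPM (5.81 to 12.1), 9.17-fold over T-like cells, which had 2 UMIs. In the epidermis it had 56 UMIs, 53 of them in 50 basal keratinocyte-like cells at 0.593 CPM (0.444 to 0.775), so that the level in dermal fibroblast-like cells was above that in epidermal basal cells. *Bdnf* (chr2:109674700-109727007) had 18 dermal UMIs, 11 of them in 9 fibroblast-like cells at 3.03 CPM (1.51 to 5.43). All 9 of its epidermal UMIs were in basal keratinocyte-like cells. Of these, 8 lay in 5 of the 335 cells with *Sox9*, a transcription factor of hair follicle progenitors, against 1 in the other 2356. That split was made after values were seen and was 1 of 5 tried in basal keratinocyte-like cells.

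Among the partners of the neurotrophins, *Ntrk2*, the receptor for BDNF, was highest in fibroblast-like cells at 46.3 CPM, and *Ngfr*, the low-affinity receptor, in dendritic or Langerhans-like cells at 16.9 CPM. *Ngfr* also had 14 UMIs in 11 of the 26 Schwann or glial-like cells, which have *Sox10* among their markers. At 116 CPM this smaller class stood above the dendritic or Langerhans-like one. *Ntrk3*, the receptor for NT-3, had 7 and 6 UMIs in dermis and epidermis. In the dermis *Ntf3*, *Ntrk2* and *Ngfr* were concentrated in the classes of at least 50 cells given above, where 13.0% of all genes met the rule. *Ntrk2* was 10.1-fold and *Ngfr* 5.16-fold over the second class. In the epidermis 8 of the 10 genes of this list passed 20 UMIs and 0 were concentrated, beside 12.7% of all genes. *Ntf5*, which codes for another neurotrophin, had 566 epidermal UMIs, 522 of them in basal keratinocyte-like cells at 5.84 CPM.

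Most UMIs of *Gdnf* and *Artn* were counted in the deeper epidermal library. The *Artn* level was 2.48 CPM (1.14 to 4.71) in dermal fibroblast-like and 0.973 CPM (0.779 to 1.20) in basal keratinocyte-like cells, with overlapping intervals. *Gdnf* (chr15:7810846-7837575) had 88 UMIs in the epidermis, 84 of them in 70 basal keratinocyte-like cells at 0.939 CPM (0.749 to 1.16), and 3 in 407 differentiated cells at 0.291 CPM (0.0600 to 0.850). *Artn* (chr4:117926162-117929763) had 104 UMIs, 87 of them basal. Its epidermal level was highest in the upper follicle class at 5.91 CPM (2.17 to 12.9), from 6 UMIs in 5 of 51 cells. Basal cells stood at 0.973 CPM (0.779 to 1.20) and differentiated cells at 1.07 CPM (0.533 to 1.91), and these 2 intervals overlap. *Artn* and *Tslp* therefore had opposite orders over the upper follicle and the other keratinocyte classes.

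In the dermis, *Gdnf* had 11 UMIs and *Artn* 15. Of the latter, 9 were in fibroblast-like cells at 2.48 CPM (1.14 to 4.71). The 26 Schwann or glial-like cells held 3 UMIs of each gene, or 24.8 CPM (5.11 to 72.4). On these few UMIs, both levels were above those in all classes of at least 50 cells. That class held 40 of the 49 dermal UMIs of *Gfra3*, the co-receptor of artemin, at 330 CPM in 13 cells. *Gfra1*, the co-receptor of GDNF, was highest in fibroblast-like cells at 75.3 CPM, 19.2-fold over the second class of at least 50 cells. The 26 Schwann or glial-like cells stood near the fibroblast-like level, at 66.1 CPM from 8 UMIs in 6 cells. *Ret* had 23 dermal UMIs, 10 of them in 6 of the 30 vascular endothelial-like cells, and *Nrtn*, a related ligand, was at 17.9 CPM in fibroblast-like and 28.3 CPM in differentiated keratinocyte-like cells. Of these 12 genes, 8 passed 20 UMIs in the dermis and 4 were concentrated, *Nrtn* and *Gfra1* in fibroblast-like and *Gfra2* and *Ncam1* in mast-like cells, and 5 passed in the epidermis, with *Artn* and *Ncam1* concentrated. The shares over all genes were 13.0% and 12.7%. In Schwann or glial-like cells, a class under 50 cells, *Gfra2* was at 90.8 and *Ncam1* at 116 CPM. Mast-like cells stood at 92.1 and 138 CPM.

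*Edn1* (chr13:42301476-42307990) was found in several classes of the dermis. Of 118 dermal UMIs, 22 lay in 7 of the 30 vascular endothelial-like cells, with 10, 6, 2 and 4 times 1 UMI, or 44.0 CPM (27.6 to 66.6). Macrophage-like cells stood at 1.55 CPM (0.868 to 2.56) and fibroblast-like cells at 4.14 CPM (2.32 to 6.82). Dendritic or Langerhans-like cells had 19 UMIs in 5 cells, 10 of them in 1 cell, and monocyte-like cells 20 UMIs in 12 cells, 9 of them in 1. Without those richest cells the 2 classes stood at 2.24 and 1.44 CPM. By level the highest class of at least 50 cells was the mast-like one at 6.58 CPM, which is 1 UMI (0.167 to 36.6), so no class of that size led. Thinned to 1000 UMIs, *Edn1* was expected in 2.78% of vascular endothelial-like cells and 0.105% of neutrophil-like cells.

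In the epidermis, *Edn1* had 130 UMIs, of which 106 lay in 71 basal keratinocyte-like cells at 1.19 CPM (0.970 to 1.43). Basal cells were also split by *Sox9*, after values were seen and as 1 of 5 genes tried. Median depths were 34338 UMIs with and 32569.5 UMIs without it. The *Edn1* level was 2.82 CPM (1.95 to 3.94) in the 335 cells with *Sox9* and 0.930 CPM (0.728 to 1.17) in the others. In the lowest cell-cycle bin it was 2.34 CPM (1.67 to 3.19), against 0.694 CPM (0.397 to 1.13) in the highest, the same direction as *Tslp*. The receptor *Ednra* was highest in dermal mast-like cells (59.2 CPM, 9 UMIs) and fibroblast-like cells (13.5 CPM, 49 UMIs), and it was the 1 concentrated gene of the 5 in this axis that passed in the dermis, beside 13.0% of all genes. *Ednrb* was highest in macrophage-like cells at 27.3 CPM among dermal classes of at least 50 cells. The 12 lymphatic endothelial-like cells stood higher, at 114 CPM from 13 UMIs in 4 cells. Of the 29 epidermal *Ednrb* UMIs, 24 were in the 12 melanocyte-like cells. *Ece1*, which cleaves the endothelin precursor, had 630 CPM in the lymphatic and 284 CPM in the vascular endothelial-like cells. In the epidermis 5 passed and 0 were concentrated, beside 12.7% of all genes.

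The 22 other itch-related genes set the scale for these levels. In the dermis 14 passed 20 UMIs and 4 were concentrated. These were *Tph1* (875 CPM), *Mrgprb2* (125 CPM) and *Nmb* (112 CPM) in mast-like cells and *Il33* (64.0 CPM) in fibroblast-like cells. *Nmb* was also at 166 CPM in the 12 lymphatic endothelial-like cells, from 19 UMIs in 9 cells. In the epidermis 17 passed and 7 were concentrated, beside 12.7% of all genes and 13.0% in the dermis, among them the kallikrein proteases *Klk7* (814 CPM), *Klk5* (115 CPM) and *Klk14* (39.4 CPM) in upper follicle cells, the class in which *Tslp* was lowest among keratinocytes. *Il13* led in T-like cells at 71.0 CPM, and *Ctss* and *Ltc4s* in dendritic or Langerhans-like cells at 1058 and 451 CPM. *Ltc4s* is among the markers by which that class was gated, so its place there was set in advance and is no result. *Il4*, a marker of the basophil-like gate, met the rule on 3 of its 29 UMIs, in basal keratinocyte-like cells. Its other UMIs lay in cells outside the classes of at least 50 cells. Over all genes with 20 UMIs, the median ratio of the first to the second class was 1.38 in the dermis and 1.44 in the epidermis.

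The genes most like each listed gene were found by Pearson's r of log2(CPM + 1) over the 13 classes of at least 50 cells in both libraries, among 13739 other genes with at least 50 UMIs. The points share libraries, depth and the marker gate, and genes are not independent. For a gene high in 1 class only, r mainly records that class, and the highest class of *Artn* held 6 UMIs. Closest to *Sema3a* were *Syt13*, *Twist1* and *Mme* (r = 0.992, 0.990 and 0.989), and to *Tslp* were *Ascl2* (0.969), *Prss53* (0.939) and *Gdpd2* (0.926). For *Penk* they were *Acyp2* (0.943), *Rgs16* (0.932) and *Meis3* (0.930), for *Artn* *Fzd3* (0.996), *Ephx4* (0.986) and *Lingo1* (0.977), and for *Ntf3* *Tshz2*, *Ntn4* and *Wfdc2* (0.958, 0.957 and 0.957). For *Gdnf* they were *5930430L01Rik* (0.957), *Dnmt3bos* (0.948) and *Rad51ap2* (0.933), and for *Edn1* *Vsig10* (0.900), *Ampd2* (0.820) and *Car2* (0.806), the least close of the 7 genes that could be compared.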

How the data were processed

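The authors sequenced 3′ libraries (10x Genomics) of 1 dermal and 1 epidermal cell suspension, and, per the submitters' processing notes, used CASAVA, Cell Ranger and mm10. The deposited matrices hold counts, whole UMIs per gene and barcode, without normalization; totals were 41258087 dermal and 108768396 epidermal UMIs. From these, cells with at least 200 genes and at most 10% mt- UMIs were kept.

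Each of 19 classes had 8 markers. A cell's score was the mean over markers of log2(1 + UMIs per 10000), each scaled to its 99th percentile and capped at 1; a class was given at a score of at least 0.2, with at least 3 markers detected and a lead of 0.1 over other lineages. Dendritic and Langerhans classes were merged. The score thresholds were set after seeing the gated cells, and 397 dermal and 75 epidermal cells lay within 0.02 of the lead. Scrublet (scanpy 1.11.5) called 0 dermal and 8 epidermal doublets by its automatic threshold, so that doublets stayed in the main values, and the 180 and 139 cells of highest score were removed as an alternative. UMIs were summed per class; with 1 library per tissue no p-value was computed. Thinned shares are exact expectations for drawing a fixed number of UMIs, with shallower cells left out. Where a gene had 0 UMIs, 3 counts gave the limit. The concentration ratio was also run on simulated counts, but no result of that run is given here. Nothing about how the rule behaves for genes with few UMIs or for classes with few summed UMIs is read from it.

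Genes named were the 9 listed, their receptors and partners, concentrated genes of 7 pathway lists (88 genes), the 3 most alike genes and markers. Some results of the neurotrophin list are not reported here. The members and lists were chosen with earlier results of these data known. Positions came from GENCODE M21 (GRCm38), in which 30934 of 31053 gene identifiers were found. Python 3.11.15, SciPy 1.17.1 and pandas 2.3.3 were used.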

Additional observations from a re-analysis of the deposited data

How the results depend on the processing

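The values compared were, for each gene with at least 20 UMIs in a library, those of its class of highest CPM. Of 150 alternative values 101 stayed within the counting interval, and the rest are given here. Some of these classes held few UMIs, only 1 for epidermal *Ntf3* and dermal *Edn1*. Their intervals are wide, so a value that stayed inside says little there. Classes from clusters moved the share of UMIs of *Ntf3* to 88.9%, *Sema3a* to 70.9% (dermal fibroblast-like), and, in a larger upper follicle class, *Ntf3* to 10.7%, *Artn* to 20.2%, *Penk* to 67.9% and *Edn1* to 24.6%. Of the 53 epidermal *Penk* UMIs, 25 lay in ungated cells or in gated classes under 50 cells. The 67.9% therefore includes cells that the gate did not call keratinocyte-like. The stricter gate gave 45.7% for *Sema3a* and 0 for dermal *Edn1*, whose 1 mast-like UMI also went with the top Scrublet scores (0). The filter of the study (200 to 5000 genes, at most 5% mt- UMIs) left *Gdnf* at 88.0% and 0.496 CPM in basal and *Tslp* at 10.5% and 39.0 CPM in differentiated cells; the mean of per-cell CPM was 0.741 for *Gdnf*, 42.8 for *Tslp* and, in upper follicle cells, 11.4 for *Edn1*. No value left its interval without a filter on cells. Leaving out the richest cell of the library also moved none, but that cell often lay outside the class measured. Without the richest cell of the class itself, *Tslp* in differentiated cells fell to 37.2 CPM and *Penk* in mast-like cells to 127 CPM, and *Ntf3* and *Edn1* in upper follicle and *Edn1* in mast-like cells, each seen in 1 cell, fell to 0, while the other 6 values stayed within their intervals.

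With at least 2 UMIs asked for, shares of cells were 1.61% (*Ntf3*), 10.6% (*Sema3a*), 0.875% (*Tslp*), 3.33% (*Penk*) and 0 (*Edn1*) in the dermis, and 0 (*Ntf3*), 0.409% (*Gdnf*), 1.96% (*Artn*) and 12.3% (*Tslp*) in the epidermis. Thinned to 1000 UMIs they were 0.899%, 3.30%, 0.399% and 0 for dermal *Ntf3*, *Sema3a*, *Tslp* and *Edn1*, and 0.0750%, 0.388%, 3.23% and 0.513% for epidermal *Gdnf*, *Artn*, *Tslp* and *Penk*; at 2000 UMIs 1.79%, 6.01%, 0.799%, 0, 0.151%, 0.826%, 5.82% and 1.07%. Members concentrated in 1 dermal class fell from 2 to 1 at a minimum of 50 UMIs, which *Ntf3* did not reach, or with a pseudocount of 0.5 UMIs, and epidermal ones from 1 to 0 at 8-fold.

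No paired analysis was possible because neither tissue has a second library. The pseudocount, the concentration without mast-like cells (2 dermal genes, as before), the splits without their richest cell and the classes without theirs were chosen after seeing the data. The cause of a moved value was not tested. Counts are few for every gene but *Tslp*, *Penk* and *Sema3a*, and classes of 12 to 51 cells rest on few cells. Animals, sort and tissue cannot be told apart.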
